A study of Mus musculus with 34 samples.

Results

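Lungs of mouse embryos with global Lin28A overexpression were compared with control lungs at E14.5 (E, embryonic day) by poly(A) RNA-seq of the whole organ. The comparison was chosen by sample titles alone and rests on 7 of the 34 libraries of the study, 4 global and 3 control, and on all measured genes. Every group, controls included, received doxycycline in drinking water (1 g/L, starting at E0.5), and the day of the vaginal plug was counted as E0.5. The titles of the global libraries carry the tag Vasa, the name of a germ cell gene. The labels describe neither the alleles, the promoter behind Lin28A and the strain nor whether control embryos held part of a transgene. They do not say that replicates came from separate animals or litters, or whether lungs were pooled. Each p-value therefore measures a spread between libraries, which may be technical. That spread was estimated from all 34 libraries in 1 fit, not from these 7 alone. The question was which transcripts of the lung had moved at the stage when the branching tips begin to make alveolar and airway cell types.

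Lin28A is an RNA-binding protein of early embryonic cells that blocks the maturation of let-7 microRNAs. A mature let-7 pairs through its seed, bases 2 to 8 of the microRNA, with matching letters in the 3' untranslated region (3' UTR) of a messenger RNA and lowers its level or translation. In the embryonic lung, let-7 levels normally climb while Lin28 genes fall, and the distal epithelium passes from a growing branching tip to surfactant-making and gas-exchange cells.

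Lin28a itself was at 4.15, 0.192 and 0.275 CPM in controls and 354, 402, 289 and 361 CPM in global lungs. All global libraries were far above all controls, and control 1 held 54 counts of Lin28a against 3 and 4 in the other controls (log2 fold 7.92 ± 0.55, edgeR adjusted p = 7.82e-11). The counts do not separate a transgene from the endogenous gene. The second Lin28 gene, Lin28b, was at 1.997, 1.72 and 4.395 CPM in controls and 5.61, 3.92, 4.39 and 6.52 CPM in global lungs, with overlapping groups and no call (log2 fold 0.91 ± 0.39, edgeR adjusted p = 0.125), although it was called without control 3 (log2 fold 1.45, edgeR adjusted p = 0.0419). Ddx4, the gene called Vasa, stayed under 1 CPM in each of the 7 libraries (log2 fold -0.63 ± 0.79, edgeR adjusted p = 0.666). CPM, the usual depth-scaled unit of counts, was taken over TMM-scaled library totals, and values are given in the order of the libraries, controls 1 to 3 and global 1 to 4.

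Total counts ran from 9928631 to 15500555 over the 7 libraries, and the lung genes Nkx2-1, Epcam and Sftpc were present in all of them. Some libraries stood apart in transcripts of other tissues. Thymus genes summed to 596 CPM in control 3 and to 149 to 153 CPM in the other controls and 112 to 139 CPM in the global libraries. Kidney genes summed to 680 CPM in global 4 and to 98.3 to 119 CPM elsewhere. Over 8 kidney genes the median level, as a percentage of that in global 4, was 2.25% in control 1, 2.57% in global 1, 3.65% in global 2, 6.07% in global 3 and 0% in controls 2 and 3. The Y-linked genes Ddx3y, Kdm5d, Eif2s3y and Uty summed to 237, 253 and 238 CPM in control 2, control 3 and global 1, to 26.8 CPM in global 2, which was also high in Xist at 1926 CPM, and to under 0.2 CPM in the rest. The part of these transcripts in the results was not tested. List counts at E14.5 are also given without control 3 or without global 4 wherever that moved them by over 1.5 times. With a class of libraries above 100 CPM of Xist as a term in the fit, 2133 genes were called and 86.5% of the main calls were among them. At E14.5 this class held control 1 and global 2, 3 and 4, at 1446, 1926, 2225 and 2118 CPM. The other E14.5 libraries were at 1.16 to 1.44 CPM, so the class was unbalanced between the groups.

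**Figure D1:**
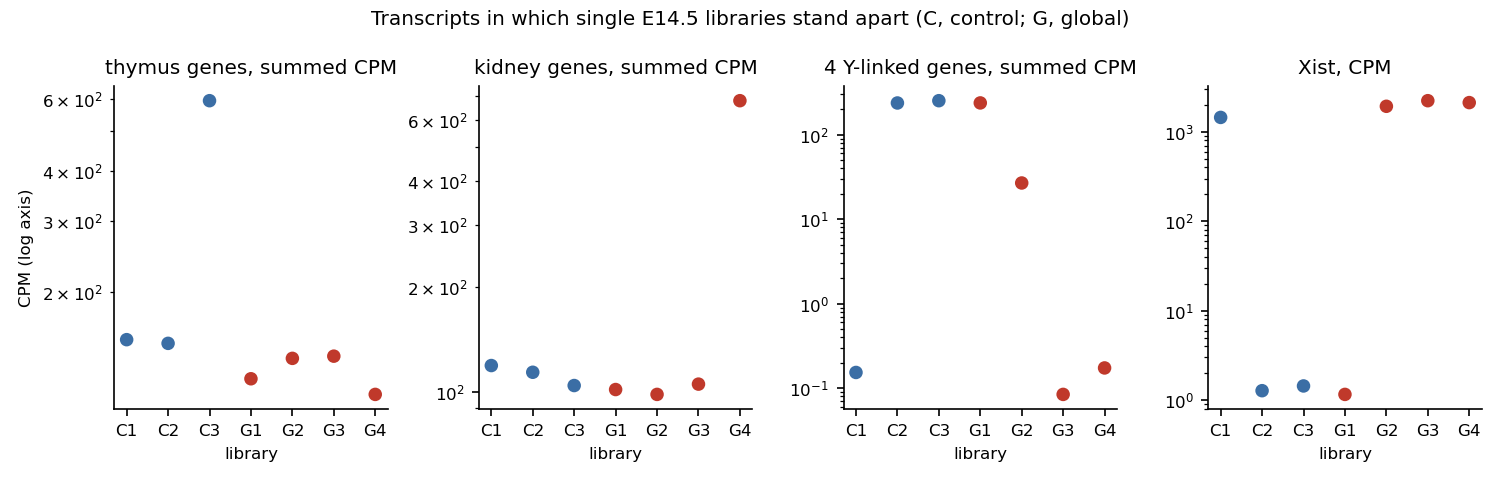
Summed CPM of thymus genes, of kidney genes and of 4 Y-linked genes, and CPM of Xist, in each E14.5 library (C, control; G, global; 1 point a library, log axes). Control 3 stands alone in thymus genes at 596 CPM, global 4 in kidney genes at 680 CPM, and global 2 lies between the other libraries in Y-linked genes at 26.8 CPM.

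Across 18319 genes, 814 were higher and 1547 lower in global lungs (adjusted p under 0.05), which is 4.44% and 8.44% of those tested and 12.9% in all. Without control 3 the counts were 369 higher and 905 lower (2.02% and 4.95%, or 6.97% in all). Without global 4 they were 509 and 1068 (2.78% and 5.84%, or 8.62% in all), and without both libraries 199 and 539 (1.09% and 2.95%, or 4.05% in all). Of the main calls 917 held whichever of the 7 libraries was left out, 256 of them higher and 661 lower. The median log2 fold of all genes was -0.04. Fitted on the 7 libraries alone, 1209 genes were higher and 1387 lower, so that 46.6% of calls were higher against 34.5% with all libraries in the fit.

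**Figure D2:**
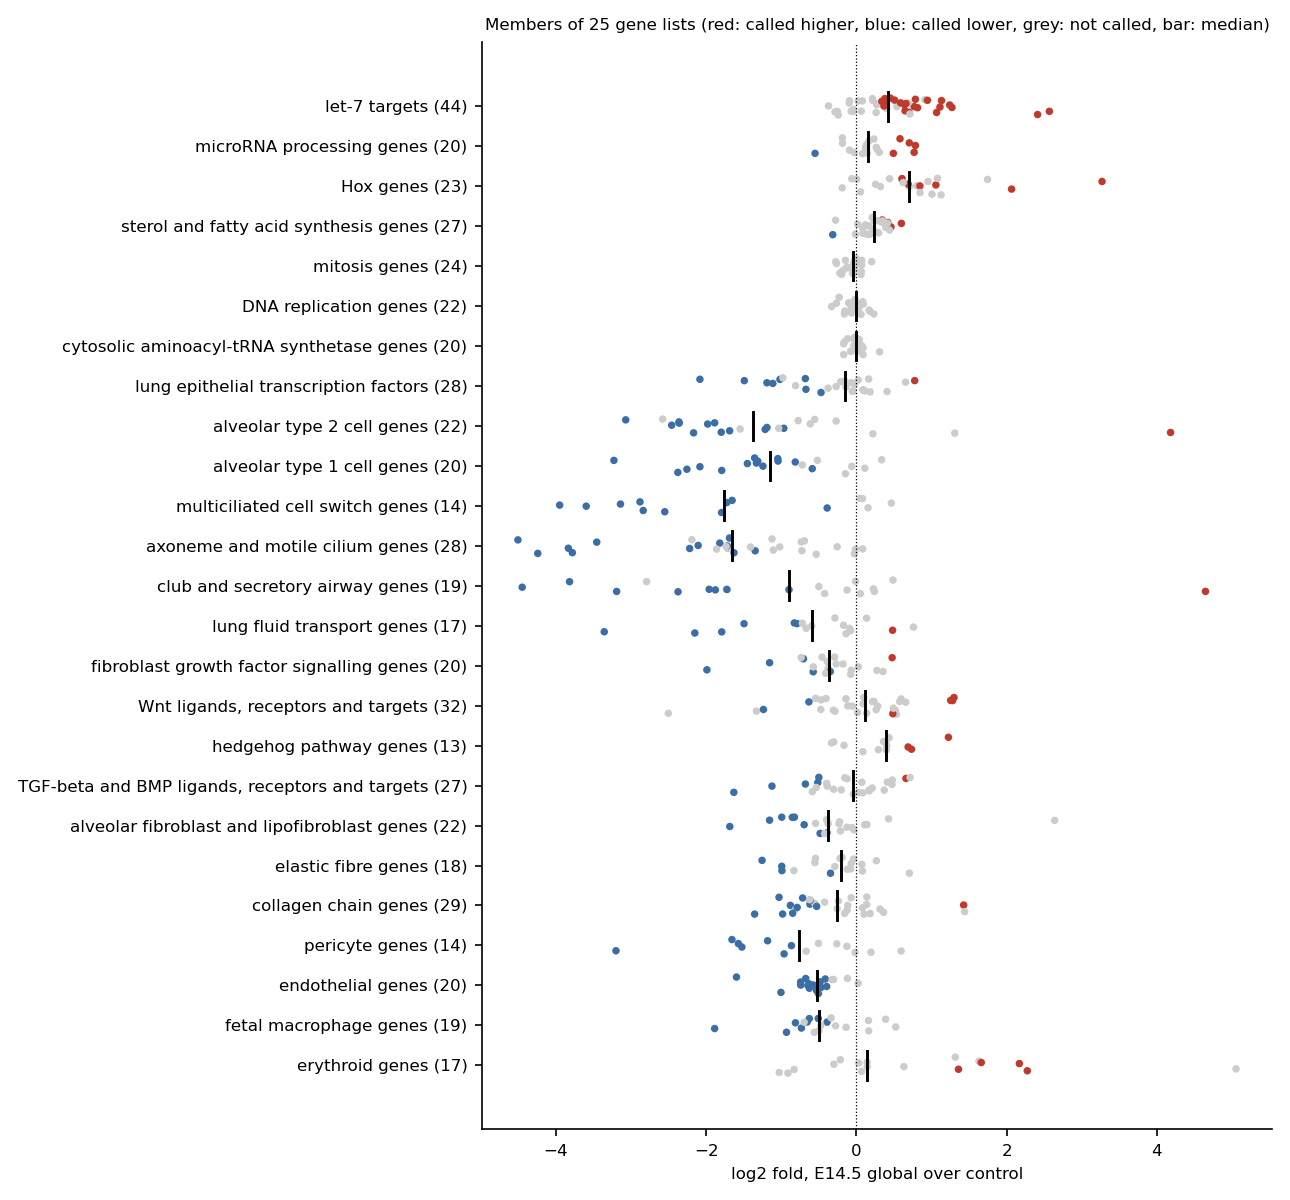
Log2 fold of global over control lungs at E14.5 for every tested member of 25 gene lists (1 point a gene, number of members in brackets, bar at the list's median). The let-7 targets lie mostly right of 0, with 22 of 44 called higher, alveolar, cilium and endothelial genes lie mostly left, and the mitosis, replication and tRNA synthetase lists hold no called member.

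The let-7 family is shown first, since its seed defines the matches counted below. RefSeq (GRCm38.p6) lists 13 let-7 loci with 11 distinct mature sequences, 10 of which share the seed GAGGUAG, in capitals here. Not printed are let-7f, let-7k and let-7j, the last of which differs within the seed. The sequences that share the seed differ outside it:
let-7a-5p: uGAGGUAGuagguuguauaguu
let-7b-5p: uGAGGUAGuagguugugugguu
let-7c-5p: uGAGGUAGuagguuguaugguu
let-7d-5p: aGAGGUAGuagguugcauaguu
let-7e-5p: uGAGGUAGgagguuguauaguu
let-7g-5p: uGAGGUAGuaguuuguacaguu
let-7i-5p: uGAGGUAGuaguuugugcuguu
miR-98-5p: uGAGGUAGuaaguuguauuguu

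The letters that pair with this seed are CTACCTC, searched on the transcript strand of 3' UTRs. Hmga2, Igf2bp1, Igf2bp2, Fignl2 and Trim71 hold such matches and are described below with their values. Igf2bp1 and Trim71 hold 4 matches each, of which only sites 1 and 2 are printed. All sites of the other genes are shown. The printed strand is the minus strand of GRCm38. The match is in capitals, as is a following A, which strengthens pairing by let-7, where present:
Hmga2 site 1, chr10:120364224-120364246: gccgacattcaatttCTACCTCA
Hmga2 site 2, chr10:120362987-120363009: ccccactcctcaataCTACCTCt
Hmga2 site 3, chr10:120362549-120362571: ctgatttgcaaggaaCTACCTCc
Hmga2 site 4, chr10:120361691-120361713: aatcaaaacacactaCTACCTCt
Igf2bp1 site 1, chr11:95961778-95961800: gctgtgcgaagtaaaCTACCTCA
Igf2bp1 site 2, chr11:95959357-95959379: cagcagtgctattaaCTACCTCA
Igf2bp2 site 1, chr16:22059473-22059495: acacacaaataaaagCTACCTCA
Fignl2 site 1, chr15:101050489-101050511: ccccggctgcagcacCTACCTCA
Fignl2 site 2, chr15:101050327-101050349: ggttgtaacccatttCTACCTCA
Fignl2 site 3, chr15:101050252-101050274: gcagttgtggcctgtCTACCTCA
Trim71 site 1, chr9:114512472-114512494: aacattgcctaagtcCTACCTCA
Trim71 site 2, chr9:114512376-114512398: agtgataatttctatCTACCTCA
The capitals are the same in every line, apart from the final A, and the flanking bases are not.

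Targets of let-7 rose in the global lungs. Of 44 listed targets 22 rose and none fell, with a median log2 fold of 0.43. Without control 3, 15 rose, and without global 4, 18 rose. Hmga2 (gene ENSMUSG00000056758, on chromosome 10 from 120361275 to 120476469), an architectural chromatin factor of dividing embryonic tissue, was at 80.7, 64.2 and 58.03 CPM in controls and 363, 353, 359.5 and 529 CPM in global lungs. The groups were far apart and global 4 was the highest library (log2 fold 2.57 ± 0.18, edgeR adjusted p = 7.82e-11). Igf2bp1 (chromosome 11, 95957163 to 96005940), which binds and stabilizes growth-related messenger RNAs, was at 109.6, 86.9 and 71.6 CPM in controls and 211, 204, 189 and 242 CPM in global lungs. Its relative Igf2bp2 (chromosome 16, 22059009 to 22163299) was at 151, 145 and 118 CPM in controls and 358, 290.1, 325 and 359 CPM in global lungs. For both genes the lowest global library was above the highest control (log2 fold 1.24 ± 0.17, edgeR adjusted p = 1.34e-05 for Igf2bp1 and log2 fold 1.27 ± 0.14, edgeR adjusted p = 8.66e-07 for Igf2bp2). The third member, Igf2bp3, rose less (log2 fold 0.81 ± 0.11, edgeR adjusted p = 8.96e-06).

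Other targets that rose include Igdcc3, an immunoglobulin-family membrane protein of the early embryo, which was at 5.38, 7.41 and 4.395 CPM in controls and 31.8, 24.3, 29.6 and 36.7 CPM in global lungs. It had the second largest rise of the list after Hmga2 (log2 fold 2.41 ± 0.22, edgeR adjusted p = 3.78e-08). The DNA-binding gene Arid3a (log2 fold 1.07 ± 0.12, edgeR adjusted p = 1.16e-06) and Fignl2, a relative of microtubule-severing ATPases chosen after its values were seen (log2 fold 1.11 ± 0.18, edgeR adjusted p = 0.000107), rose without overlap between groups. Trim71, a stem cell ubiquitin ligase, was at 12.3, 14.04 and 9.13 CPM in controls and 21.6, 20.2, 18.1 and 20.9 CPM in global lungs. It was called with all libraries (log2 fold 0.77 ± 0.21, edgeR adjusted p = 0.0149) but not without control 3, its lowest library (log2 fold 0.61, edgeR adjusted p = 0.121). The growth genes picked after seeing values behaved unevenly. Ccnd1 (log2 fold 0.38 ± 0.10, edgeR adjusted p = 0.00953) and Ccnd2 (log2 fold 0.45 ± 0.11, edgeR adjusted p = 0.00557), which drive the entry into the cell cycle, rose but lost their calls without control 3 (log2 fold 0.33, edgeR adjusted p = 0.0702 and log2 fold 0.39, edgeR adjusted p = 0.0548). Myc (-0.10 ± 0.15) and Nras (0.07 ± 0.09) did not pass, with edgeR adjusted p of 0.744 and 0.684, nor did Hmga1 (log2 fold -0.37 ± 0.35, edgeR adjusted p = 0.552).

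Genes that process microRNAs or act with them moved in part. Of 20 genes 5 rose and 1 fell, 3 rose and none fell without control 3, and 4 rose and none fell without global 4. Dicer1, the enzyme that cuts the let-7 precursor and itself a let-7 target, was at 127, 148 and 124 CPM in controls and 251, 215, 216 and 236 CPM in global lungs. All global libraries were above all controls (log2 fold 0.79 ± 0.11, edgeR adjusted p = 1.69e-05). Tut4, the uridyl transferase that Lin28A recruits to the let-7 precursor (log2 fold 0.58 ± 0.11, edgeR adjusted p = 0.000888), and Ago2, the microRNA-bound nuclease (log2 fold 0.70 ± 0.15, edgeR adjusted p = 0.00224), rose without overlap. Ago2 holds 3 seed matches of its own.

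Over all genes with a 3' UTR, the shift followed the number of seed matches. Lin28a itself was left out. The median log2 fold was -0.05 over 13575 genes with no match, 0.03 over 1377 with 1 match, 0.10 over 164 with 2 and 0.31 over 28 with 3 or more. Higher calls made up 4.41%, 9.51%, 15.2% and 42.9% of these classes, and lower calls 10.2%, 8.28%, 3.05% and 0%. The 12 higher genes with 3 or more matches were Hmga2, Trim6, Igf2bp1, Fignl2, Zkscan2, Hic2, Zc3hav1l, Trim71, Ago2, Fign, Hif1an and Nhlrc3, several of them zinc-finger or stem cell genes, chosen after their values were seen where the naming rule does not hold them. Genes with more matches also have longer 3' UTRs, with medians of 1034, 2177, 3519.5 and 4459.5 bases. Among genes whose 3' UTR reaches 2000 bases the 4 medians were 0.02, 0.04, 0.10 and 0.32. Counting only matches followed by A, the classes held 14597, 519, 21 and 7 genes and the medians were -0.04, 0.07, 0.25 and 0.77. In each global library set against the mean control, the gap between the classes with 3 or more and with no match was 0.50, 0.27, 0.37 and 0.31. It was positive in all 4, but the same control mean enters each gap, so they are not independent.

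A match did not mean a rise. Mcf2l, an exchange factor for small GTPases, holds 7 matches, all followed by A, and was at 20.2, 18.1 and 17.03 CPM in controls and 19.5, 18.9, 19.02 and 17.6 CPM in global lungs (log2 fold 0.03 ± 0.19, edgeR adjusted p = 0.955). Nudt12, which removes NAD caps from RNA, holds 7 matches and was at 4.76, 5.68 and 6.66 CPM in controls and 5.61, 6.21, 6.51 and 5.39 CPM in global lungs (log2 fold 0.06 ± 0.22, edgeR adjusted p = 0.907). Both were chosen after their values were seen, and in both the groups overlapped. Trim67, a brain-enriched relative of Trim71 with 3 matches, had the lowest fold of the 28 (log2 fold -1.17 ± 0.42, edgeR adjusted p = 0.0645) and was chosen after its values were seen.

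**Figure D3:**
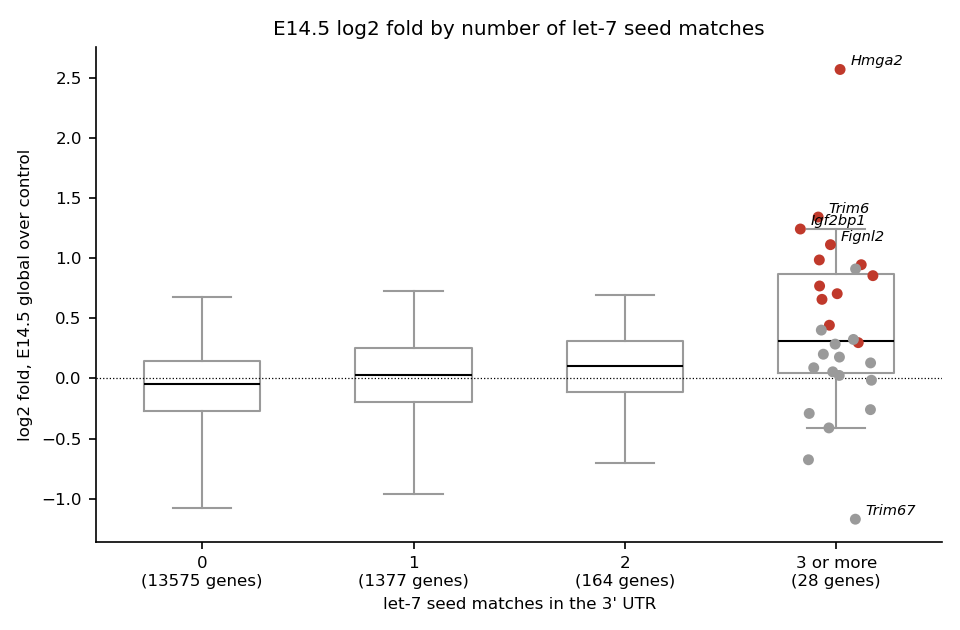
Log2 fold of global over control lungs at E14.5 for genes with 0, 1, 2 and 3 or more let-7 seed matches in the 3' UTR (boxes, quartiles with the median; whiskers, 5th to 95th percentile; points, the 28 genes with 3 or more matches, red where called higher). Medians go from -0.05 to 0.31, and Hmga2 has the largest rise of the 28.

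Of the 10 tested genes of the early embryonic list 4 rose and none fell, and 3 rose without control 3. Sall4, a zinc-finger gene of pluripotent cells, was at 0.384, 0.192 and 0.0687 CPM in controls and 5.71, 3.84, 3.72 and 7.04 CPM in global lungs. Every global library was several times above every control (log2 fold 4.53 ± 0.58, edgeR adjusted p = 7.24e-06). Outside the list, Cer1, a secreted antagonist of the early embryo, was at 0.999, 0.766 and 0.549 CPM in controls and 2.22, 3.32, 3.803 and 2.52 CPM in global lungs, also without overlap (log2 fold 1.94 ± 0.45, edgeR adjusted p = 0.00396). Dnmt3a, a DNA methyltransferase, rose with all libraries (log2 fold 0.48 ± 0.13, edgeR adjusted p = 0.0155) but was not called without control 3 (log2 fold 0.38, edgeR adjusted p = 0.125). Of 23 Hox genes, which pattern the body axis, 6 rose and none fell (median 0.70), but 2 rose without control 3 and 4 without global 4. Hoxb4 was the Hox gene with the smallest p (log2 fold 0.69 ± 0.12, edgeR adjusted p = 0.000384). Among 19 imprinted growth genes 1 rose and 1 fell. Peg10, a retrotransposon-derived gene, was at 108, 103 and 75.8 CPM in controls and 176, 154, 226 and 243 CPM in global lungs (log2 fold 1.06 ± 0.20, edgeR adjusted p = 0.000554), and Mest fell (log2 fold -0.53 ± 0.13, edgeR adjusted p = 0.00573). H19, the most abundant of them, lay lower in each global library, at 3821 to 4206 CPM against 4558 to 5207 CPM, but did not pass (log2 fold -0.28 ± 0.19, edgeR adjusted p = 0.391).

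Cell division genes did not follow at this stage. None of 24 mitosis, 22 DNA replication, 16 p53 target or 20 cytosolic aminoacyl-tRNA synthetase genes was called by edgeR or by DESeq2. At an unadjusted p under 0.05 there were 0, 1, 1 and 1 of them, and the median log2 folds were -0.05, -0.01, -0.10 and -0.01. Mki67, the proliferation antigen, was at 504, 852 and 808 CPM in controls and 697, 626, 702 and 621 CPM in global lungs, with overlapping groups (log2 fold -0.12 ± 0.19, edgeR adjusted p = 0.736). Mcm2, of the replicative helicase, was at 262 to 274 CPM in controls and 247 to 292 CPM in global lungs (log2 fold 0.01 ± 0.20, edgeR adjusted p = 0.98), and Aars, the alanyl-tRNA synthetase, at 206 to 226 CPM in controls and 203 to 223 CPM in global lungs (log2 fold -0.01 ± 0.12, edgeR adjusted p = 0.976). In lipid synthesis 4 of 27 genes rose and 1 fell, and 2 rose and none fell without control 3 or without global 4. Elovl6, a fatty acid elongase (log2 fold 0.60 ± 0.14, edgeR adjusted p = 0.00393), and Hmgcs1, an early enzyme of sterol synthesis (log2 fold 0.46 ± 0.12, edgeR adjusted p = 0.00885), rose without overlap. Psat1, an enzyme of serine synthesis, was at 389.8, 353 and 334 CPM in controls and 189, 230.0, 229.9 and 182 CPM in global lungs. It was the 1 called member among 18 genes of serine, one-carbon and branched-chain metabolism, and the highest global library was well under the lowest control (log2 fold -0.79 ± 0.11, edgeR adjusted p = 3.07e-05). Insr, the insulin receptor and a let-7 target, rose (log2 fold 0.34 ± 0.08, edgeR adjusted p = 0.00353) as 1 of 17 tested genes of the insulin-like growth factor axis, none of which fell, though 1 fell without global 4.

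Genes of the distal epithelium fell together. In whole lungs, fewer cells of a type and less RNA per cell cannot be told apart. Sftpc, the surfactant protein of alveolar type 2 cells and their precursors, was at 1299, 1238 and 1228 CPM in controls and 108, 314, 138 and 37.3 CPM in global lungs. Global 2 was the highest and global 4 the lowest of the global libraries, a wide span against near-equal controls (log2 fold -3.07 ± 0.68, edgeR adjusted p = 0.00287). Muc1, a membrane mucin, was at 110.3, 103 and 87.8 CPM in controls and 17.9, 28.8, 17.8 and 13.2 CPM in global lungs (log2 fold -2.36 ± 0.27, edgeR adjusted p = 1.43e-06), and Ctsh, a protease that trims surfactant proteins, was at 79.5, 79.6 and 123 CPM in controls and 20.5, 28.1, 17.4 and 17.5 CPM in global lungs (log2 fold -2.166 ± 0.34, edgeR adjusted p = 9.13e-05). The order of the global libraries was alike for Sftpc and Muc1, with global 2 highest and global 4 lowest. Of 22 alveolar type 2 genes 12 fell and 1 rose (median -1.38), 9 fell without control 3, and 12 fell without global 4. The riser was S100g, a calcium-binding protein also of kidney, named because it completes the count, at 0.615, 0.128 and 0.0687 CPM in controls and 0.2901, 0.222, 1.52 and 17.4 CPM in global lungs. It rested on global 4 (log2 fold 4.18 ± 1.08, edgeR adjusted p = 0.00925) and was not called without it (log2 fold 1.36, edgeR adjusted p = 0.397) or without control 3 (log2 fold 3.74, edgeR adjusted p = 0.0603). Dram1 (log2 fold -1.98 ± 0.31, edgeR adjusted p = 8.35e-05) and the lysozyme gene Lyz2 (log2 fold -1.89 ± 0.31, edgeR adjusted p = 0.00015), which macrophages also make, fell as well. Lyz2 shares reads with its near-identical copy Lyz1 to an extent the counts do not show.

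Alveolar type 1 genes fell too, 14 of 20, with 13 without control 3 and 14 without global 4 (median -1.14). Clic3, a chloride channel protein, was at 15.7, 15.4 and 15.2 CPM in controls and 1.74, 2.51, 1.099 and 1.13 CPM in global lungs. The controls differed by less than 1 CPM while all global libraries were under 3 CPM (log2 fold -3.23 ± 0.42, edgeR adjusted p = 8.19e-06). Ager, a cell surface receptor, was at 79.8, 86.9 and 87.8 CPM in controls and 17.9, 20.8, 18.001 and 14.3 CPM in global lungs (log2 fold -2.26 ± 0.31, edgeR adjusted p = 2.11e-05), and Hopx, a homeodomain protein of type 1 cells, at 21.9, 19.8 and 25.1 CPM in controls and 5.996, 5.02, 4.82 and 5.21 CPM in global lungs (log2 fold -2.08 ± 0.36, edgeR adjusted p = 0.00026). Ager and Hopx varied little among the global libraries, unlike Sftpc. Cldn18, of the tight junction (log2 fold -1.45 ± 0.20, edgeR adjusted p = 1.88e-05), and Cav1, the caveolar coat protein that endothelium also makes (log2 fold -1.35 ± 0.18, edgeR adjusted p = 1.49e-05), fell with them.

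General epithelial genes fell less, 6 of 18 (median -0.23), with 4 without control 3. Epcam, the pan-epithelial adhesion molecule, was at 230.0, 228 and 209 CPM in controls and 204, 251, 199 and 168 CPM in global lungs, with overlapping groups (log2 fold -0.12 ± 0.12, edgeR adjusted p = 0.594). Krt19, a keratin that rises as epithelium matures, was at 88.5 to 110.2 CPM in controls and 34.7 to 56.8 CPM in global lungs (log2 fold -1.13 ± 0.19, edgeR adjusted p = 0.000209). Krt8 lost its call without control 3 (log2 fold -0.80 ± 0.20, edgeR adjusted p = 0.00761, and log2 fold -0.27, edgeR adjusted p = 0.357 without it). The summed level of the 18 genes was 1599.5 to 1818 CPM in controls and 1225 to 1558 CPM in global lungs.

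Among lung epithelial transcription factors 8 of 28 fell and 1 rose, with 7 falls and no rise without control 3 and 6 falls and no rise without global 4. Cebpa, needed for the maturation of type 2 cells, was at 43.8, 31.5 and 30.9 CPM in controls and 14.8, 17.7, 16.2 and 13.2 CPM in global lungs (log2 fold -1.19 ± 0.26, edgeR adjusted p = 0.0025). Elf5 (log2 fold -1.02 ± 0.23, edgeR adjusted p = 0.00363) and Ehf (log2 fold -1.49 ± 0.32, edgeR adjusted p = 0.00198), related ETS-family factors of epithelium, fell without overlap. Nkx2-1, the factor that defines lung epithelium, was at 453, 357 and 282 CPM in controls and 284, 294, 252 and 221 CPM in global lungs. The groups overlapped, control 1 was the highest, and the call (log2 fold -0.47 ± 0.15, edgeR adjusted p = 0.0303) ended without control 1 (log2 fold -0.28, edgeR adjusted p = 0.27), control 2 (log2 fold -0.48, edgeR adjusted p = 0.0618), global 3 (log2 fold -0.45, edgeR adjusted p = 0.0725) or global 4 (log2 fold -0.40, edgeR adjusted p = 0.114). Sox9, the factor of distal tips, was at 114, 83.3 and 55.4 CPM in controls and 82.97, 78.3, 76.1 and 68.5 CPM in global lungs, with overlapping groups (log2 fold -0.14 ± 0.26, edgeR adjusted p = 0.789).

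Other genes of the distal tip split. Of 17 tip genes 5 fell and 2 rose, and 3 fell and 2 rose without global 4. The 2 that rose, Sox11 (log2 fold 0.61 ± 0.15, edgeR adjusted p = 0.00712) and Mycn (log2 fold 0.70 ± 0.19, edgeR adjusted p = 0.0155), growth-linked factors of young tissue, were not called without control 3 (log2 fold 0.42, edgeR adjusted p = 0.099 and log2 fold 0.58, edgeR adjusted p = 0.113). Clu, a secreted chaperone, was at 285, 344 and 259 CPM in controls and 67.2, 93.1, 99.3 and 69.6 CPM in global lungs (log2 fold -1.85 ± 0.22, edgeR adjusted p = 2.82e-06), and Cpm, a membrane carboxypeptidase, at 46.7, 57.8 and 52.95 CPM in controls and 20.3, 21.3, 21.3 and 17.2 CPM in global lungs (log2 fold -1.39 ± 0.19, edgeR adjusted p = 1.71e-05). In both, every global library was far under the lowest control. Id2, an inhibitor of helix-loop-helix factors, also fell (log2 fold -0.68 ± 0.15, edgeR adjusted p = 0.0032).

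**Figure D4:**
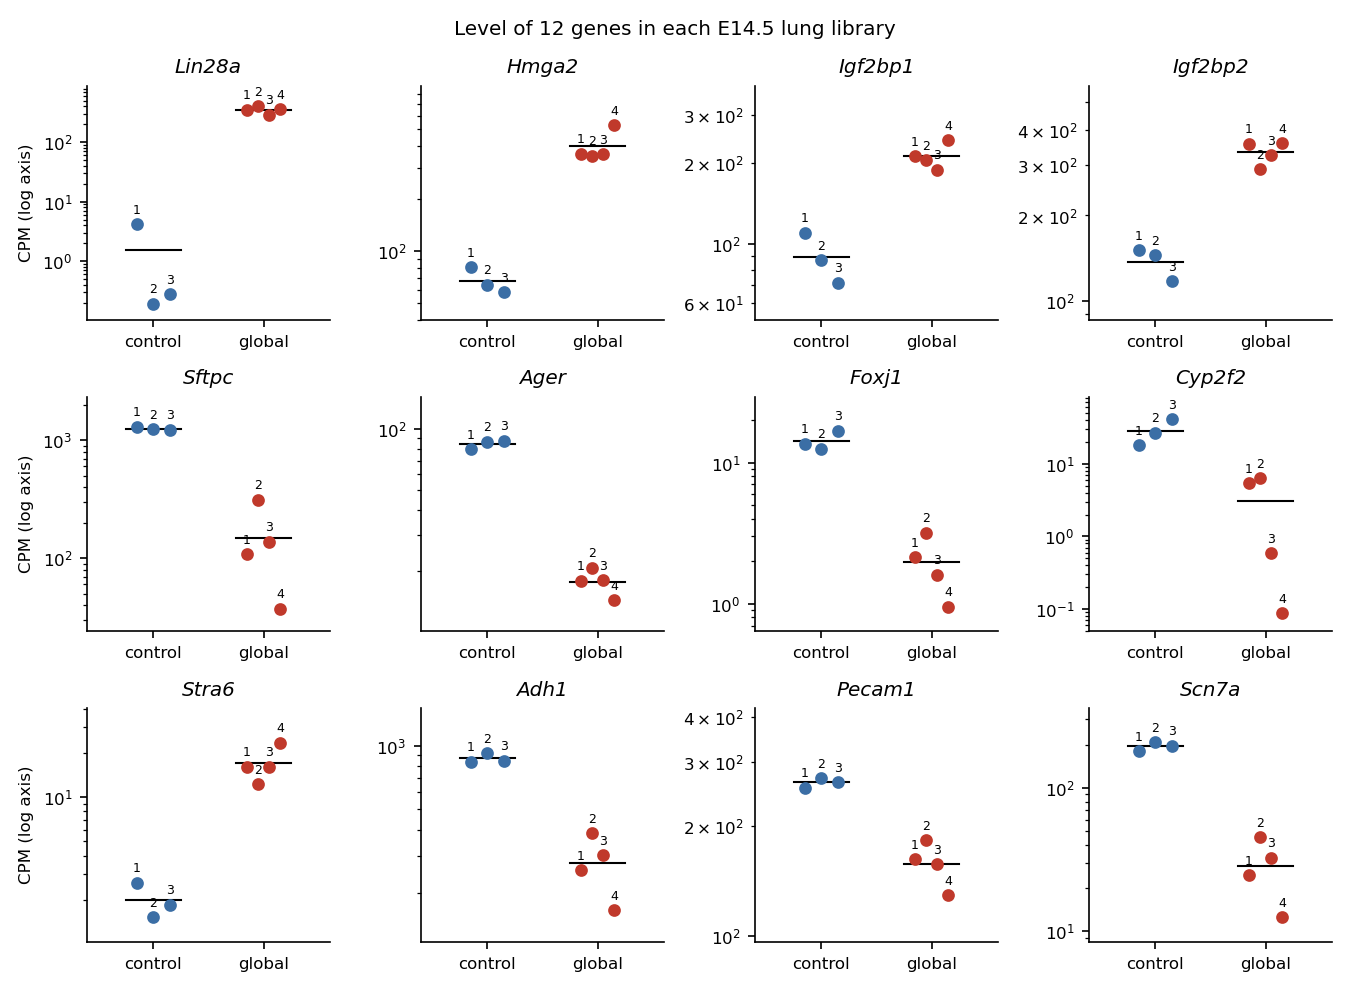
CPM of 12 genes in the 3 control and 4 global E14.5 libraries (points numbered by replicate, bars at the group mean, log axes). The groups do not overlap in any of the 12 panels. The genes were picked with results of these data known, so that count carries no weight. Lin28a, Hmga2, Stra6, Sftpc, Foxj1, Cyp2f2 and Scn7a are among the largest rises and falls, which were named only where groups do not overlap. Lin28a, Hmga2, Igf2bp1, Igf2bp2 and Stra6 are higher in global lungs and the other 7 genes are lower. Global 4 is the lowest library for Sftpc, Ager, Foxj1, Cyp2f2, Adh1, Pecam1 and Scn7a.

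Programmes of multiciliated and secretory airway cells were low as well, while neuroendocrine and basal cell genes gave few calls. Of 13 neuroendocrine genes 1 rose and 1 fell (median -0.05), and none rose without global 4. Of 10 basal cell genes 1 rose and 1 fell (median -0.63). Without control 3 no basal cell gene fell and their median was 0.43. The switch genes of multiciliated cells fell in 10 of 14 cases (median -1.76), and in 9 without control 3 and 8 without global 4. Foxj1, the master factor of motile cilia, was at 13.6, 12.51 and 16.8 CPM in controls and 2.13, 3.18, 1.61 and 0.956 CPM in global lungs (log2 fold -2.84 ± 0.47, edgeR adjusted p = 0.000157). Upstream of it, Mcidas was at 5.3004, 4.596 and 7.21 CPM in controls and 1.26, 1.63, 0.507 and 0.434 CPM in global lungs (log2 fold -2.55 ± 0.49, edgeR adjusted p = 0.000774). Global 1 and 2 kept more of both transcripts than global 3 and 4. Trp73, a factor of ciliated and basal airway cells, was at 3.303, 3.96 and 3.71 CPM in controls and 0.387, 0.665, 0.0845 and 0 CPM in global lungs (log2 fold -3.60 ± 0.62, edgeR adjusted p = 0.000287), and Foxn4, which acts in multiciliated cells of frog skin, was at 2.07, 2.298 and 2.82 CPM in controls and 0, 0.443, 0.0845 and 0 CPM in global lungs (log2 fold -3.95 ± 0.79, edgeR adjusted p = 0.00157). Deup1 (chromosome 9, 15559864 to 15627933), which builds the many centrioles of these cells, was at 2.84, 6.001 and 9.203 CPM in controls and 0.774, 1.77, 0.423 and 0.174 CPM in global lungs (log2 fold -2.88 ± 0.60, edgeR adjusted p = 0.00159). Control 3 was the highest and control 1 the lowest of the controls, so that the control spread was wide, but no global library reached them.

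Genes of the axoneme, the moving core of the cilium, fell in 12 of 28 cases (median -1.66), but in 5 without control 3 and 7 without global 4. Lrrc23 (chromosome 6, 124769863 to 124779727), a part of the radial spoke, was at 3.61, 6.13 and 9.13 CPM in controls and 0.484, 1.18, 0.423 and 0.0869 CPM in global lungs (log2 fold -3.45 ± 0.76, edgeR adjusted p = 0.00283). Cfap65, needed for the sperm flagellum, was at 1.997, 3.57 and 5.15 CPM in controls and 0.0967, 0.517, 0.254 and 0.0869 CPM in global lungs (log2 fold -3.78 ± 0.94, edgeR adjusted p = 0.00763). Tekt4, a filament of the doublet microtubules, was at 0.845, 0.958 and 1.72 CPM in controls and 0.0967, 0.0739, 0 and 0 CPM in global lungs (log2 fold -4.50 ± 0.97, edgeR adjusted p = 0.0029). All of these genes were under 10 CPM in every library and highest in control 3.

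The promoters of cilium genes often hold the letters GTTGCCA, one arm of the X-box that RFX-family factors bind. This motif was chosen after the values were seen, and RefSeq promoters (GRCm38.p6, 250 bases before to 50 after the start) were searched on both strands. It was present in 9 of 35 tested cilium-list genes that have a promoter in the table (25.7%). Among all 27025 genes with a promoter it was in 1358 (5.02%), and among 32 alveolar genes in 1 (3.12%). The shorter GTTGCC, which the longer motif contains, was in 17 of the 35 (48.6%), 3821 of all (14.1%) and 6 of the 32 (18.8%). Of the 9 genes with GTTGCCA 6 fell and 3 were not called, 1 of these with a log2 fold above 0. Of all 35 genes 19 fell, and 31.6% of those 19 hold GTTGCCA, near the 25.7% of the 35. A link of the motif to the fall was not tested. The promoters of Deup1 and Lrrc23, which fell, are shown as examples, each 5′ to 3′ on the minus strand with the matches of GTTGCCA, read on either strand, in capitals:
Deup1, chr9:15627797-15628096: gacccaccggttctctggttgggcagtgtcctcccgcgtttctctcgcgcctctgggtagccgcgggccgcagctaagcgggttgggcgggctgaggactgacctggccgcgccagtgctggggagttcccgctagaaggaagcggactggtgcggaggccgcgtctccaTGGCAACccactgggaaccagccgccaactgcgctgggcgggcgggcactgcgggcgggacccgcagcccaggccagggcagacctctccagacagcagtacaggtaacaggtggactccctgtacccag
Lrrc23, chr6:124779678-124779977: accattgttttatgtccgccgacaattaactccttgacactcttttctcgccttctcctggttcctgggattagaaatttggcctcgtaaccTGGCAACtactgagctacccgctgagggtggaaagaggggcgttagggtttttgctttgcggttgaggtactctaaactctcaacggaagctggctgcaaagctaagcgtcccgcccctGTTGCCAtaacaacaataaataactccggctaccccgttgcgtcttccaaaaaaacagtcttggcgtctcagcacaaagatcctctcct
Deup1 has its match at 80 bases before the start, and Lrrc23 has matches at 158 and 39 bases before it. A match is a description of the letters and does not show that a factor binds there.

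Secretory airway genes fell in 8 of 19 cases and 1 rose, and 6 fell and 1 rose without control 3. Cyp2f2 (chromosome 7, 27119909 to 27133660), a detoxifying enzyme of club cells, was at 18.1, 26.8 and 40.7 CPM in controls and 5.42, 6.28, 0.592 and 0.0869 CPM in global lungs. Global 3 and 4 were nearly empty while global 1 and 2 kept a reduced level (log2 fold -3.19 ± 0.57, edgeR adjusted p = 0.000361). Scgb3a2, an early secretoglobin, showed the same order at 48.4, 53.7 and 90.5 CPM in controls and 19.2, 21.6, 6.17 and 2.35 CPM in global lungs (log2 fold -2.37 ± 0.46, edgeR adjusted p = 0.000858). Bpifb1, a secreted airway defence protein, went the other way, at 0.154, 0.0638 and 0.206 CPM in controls and 3.38, 3.103, 3.46 and 4.95 CPM in global lungs. It was the 1 riser of the list and did not overlap (log2 fold 4.65 ± 0.58, edgeR adjusted p = 4.78e-06). Krt5, a basal cell keratin, was at 29.9 CPM in control 3 and under 0.8 CPM in every other library, and its fall (log2 fold -4.92 ± 1.104, edgeR adjusted p = 0.00335) had the opposite sign without that control (log2 fold 1.15, edgeR adjusted p = 0.637).

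Of 17 lung fluid genes 6 fell and 1 rose. The sodium channel subunits differed among themselves. Scnn1b was at 7.53, 8.75 and 7.62 CPM in controls and 1.26, 2.14, 1.61 and 2.09 CPM in global lungs (log2 fold -2.15 ± 0.32, edgeR adjusted p = 5.11e-05) and Scnn1g at 13.5, 12.8 and 15.2 CPM in controls and 3.87, 3.69, 4.48 and 3.91 CPM in global lungs (log2 fold -1.79 ± 0.27, edgeR adjusted p = 6.52e-05), whereas Scnn1a was at 8.45, 7.15 and 9.61 CPM in controls and 4.93, 4.88, 5.07 and 6.26 CPM in global lungs and did not pass (log2 fold -0.67 ± 0.34, edgeR adjusted p = 0.217). The chloride transporter Slc26a9 (log2 fold -1.49 ± 0.28, edgeR adjusted p = 0.000527) and the amino acid transporter Slc6a14 (log2 fold -3.36 ± 0.45, edgeR adjusted p = 1.49e-05) fell. Of 15 claudins, the tight junction proteins, 4 fell and none rose, and the median log2 fold was -0.0053, with 7 above 0 and 8 below. Of 18 secreted defence genes 6 fell, and 3 without control 3. One of those, Cd74, an antigen-presentation protein, was at 33.8 CPM in control 3 against 4.40 to 5.68 CPM in the other controls (log2 fold -2.46 ± 0.53, edgeR adjusted p = 0.00238, and log2 fold -0.92, edgeR adjusted p = 0.269 without it).

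Signalling genes changed in both directions. In fibroblast growth factor signalling 5 of 20 genes fell and 1 rose, 4 fell and none rose without control 3, and 3 fell and 1 rose without global 4. The ligands Fgf1 and Fgf7 fell, Fgf1 from 39.3, 42.8 and 39.8 to 10.1, 13.004, 9.38 and 8.34 CPM (log2 fold -1.99 ± 0.30, edgeR adjusted p = 6.64e-05) and Fgf7 from 5.91, 8.17 and 7.97 to 4.35, 4.803, 2.37 and 1.65 CPM (log2 fold -1.15 ± 0.25, edgeR adjusted p = 0.00255). Fgf10, the ligand that draws out new branches, did not pass, although the groups did not overlap (log2 fold -0.37 ± 0.17, edgeR adjusted p = 0.154). Among the receptors Fgfr3 fell (log2 fold -0.57 ± 0.14, edgeR adjusted p = 0.00497), and Fgfr1 rose (log2 fold 0.48 ± 0.13, edgeR adjusted p = 0.0134) but not without control 3 (log2 fold 0.41, edgeR adjusted p = 0.0916).

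Of 13 hedgehog genes 3 rose and none fell (median 0.39), and 2 rose without control 3. The transcription factors Gli3 (log2 fold 0.73 ± 0.13, edgeR adjusted p = 0.000481) and Gli2 (log2 fold 0.69 ± 0.17, edgeR adjusted p = 0.00644) rose, the second not without control 3 (log2 fold 0.59, edgeR adjusted p = 0.0574). The ligand Shh (log2 fold -0.30 ± 0.17, edgeR adjusted p = 0.285) and the receptor Ptch1 (log2 fold 0.36 ± 0.14, edgeR adjusted p = 0.0781) did not pass.

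In the Wnt pathway 4 of 32 genes rose and 2 fell, 2 and 2 did so without control 3, and 4 and 1 without global 4. The secreted antagonist Sfrp1 was at 68.6, 55.9 and 62.7 CPM in controls and 158, 117, 138 and 183 CPM in global lungs (log2 fold 1.26 ± 0.20, edgeR adjusted p = 0.000128). The enhancer Rspo2 rose (log2 fold 1.28 ± 0.34, edgeR adjusted p = 0.0106) but not without control 3 (log2 fold 1.15, edgeR adjusted p = 0.0735), the receptor Fzd4 fell (log2 fold -0.63 ± 0.11, edgeR adjusted p = 0.000207), and the mesenchymal ligand Wnt2 did not pass (log2 fold -0.54 ± 0.20, edgeR adjusted p = 0.0698). Wnt7a, a ligand outside that list, was at 2.54, 2.23 and 2.13 CPM in controls and 0.2901, 0.517, 0.169 and 0.0869 CPM in global lungs (log2 fold -3.02 ± 0.50, edgeR adjusted p = 0.00017). Among 27 genes of the TGF-beta and BMP pathways 1 rose and 5 fell, and 1 rose and 3 fell without global 4. The paired receptors went opposite ways, Tgfbr1, a let-7 target, from 87.03, 92.1 and 97.2 to 164, 146, 131 and 141 CPM (log2 fold 0.66 ± 0.10, edgeR adjusted p = 9.55e-05) and Tgfbr2 from 156, 163 and 155 to 112, 125, 110.3 and 95.5 CPM (log2 fold -0.51 ± 0.11, edgeR adjusted p = 0.00258). Ltbp2, a matrix protein related to those that hold latent TGF-beta, fell (log2 fold -1.63 ± 0.29, edgeR adjusted p = 0.000323). Of 14 Notch genes 3 fell, and 1 without control 3 or without global 4. Lfng, which adds sugars to Notch receptors, fell from 50.5, 37.9 and 44.5 to 25.4, 26.3, 22.1 and 21.02 CPM (log2 fold -0.90 ± 0.13, edgeR adjusted p = 4.58e-05).

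Retinoid handling changed strongly in 3 of 16 genes. Stra6 (ENSMUSG00000032327, chromosome 9, 58063788 to 58153996), the cell surface transporter of retinol, was at 2.61, 1.53 and 1.85 CPM in controls and 16.1, 12.3, 16.1 and 23.5 CPM in global lungs. The lowest global library was far above the highest control (log2 fold 3.09 ± 0.37, edgeR adjusted p = 3.17e-06). Crabp2, which carries retinoic acid to the nucleus, was at 5.38, 4.72 and 13.3 CPM in controls and 16.3, 20.02, 19.3 and 32.1 CPM in global lungs (log2 fold 1.49 ± 0.28, edgeR adjusted p = 0.000634). Adh1 (ENSMUSG00000074207, chromosome 3, 138260991 to 138290698), which oxidizes retinol, was at 838, 921 and 847 CPM in controls and 257, 384, 303 and 166 CPM in global lungs. It fell, with global 2 highest and global 4 lowest (log2 fold -1.65 ± 0.18, edgeR adjusted p = 1.06e-06). Of 14 genes of glucocorticoid activation and response 1 rose and 1 fell. Hsd11b2, which inactivates glucocorticoids, was at 4.53, 3.26 and 2.68 CPM in controls and 19.2, 16.8, 16.6 and 27.1 CPM in global lungs (log2 fold 2.52 ± 0.27, edgeR adjusted p = 8.66e-07), and the receptor Nr3c1 was at 115, 138 and 135 CPM in controls and 94.6, 101, 89.1 and 75.2 CPM in global lungs (log2 fold -0.52 ± 0.09, edgeR adjusted p = 0.000336). Of 19 immediate early genes edgeR called 0 and DESeq2 called 1 as lower, and 1 gene had an unadjusted p under 0.05.

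Of 22 alveolar fibroblast and lipofibroblast genes 8 fell and none rose, with 8 also without control 3 and without global 4. Npnt, a matrix ligand that integrins bind, was at 227, 287 and 264 CPM in controls and 145, 145, 161 and 135 CPM in global lungs (log2 fold -0.82 ± 0.12, edgeR adjusted p = 2.84e-05), and Tcf21, a factor of lung mesenchyme, was at 165, 155 and 153 CPM in controls and 116, 126, 109 and 99.6 CPM in global lungs (log2 fold -0.48 ± 0.11, edgeR adjusted p = 0.0025). Scn7a (chromosome 2, 66673425 to 66784914), a sodium-sensing channel outside the list, fell more, being at 180.4, 208 and 196 CPM in controls and 24.5, 45.1, 32.6 and 12.51 CPM in global lungs. Global 4 was again the lowest library (log2 fold -2.76 ± 0.31, edgeR adjusted p = 1.27e-06). Of 15 smooth muscle genes 1 rose and 1 fell, and none fell without global 4. The riser Myocd, the switch gene of smooth muscle (log2 fold 1.01 ± 0.27, edgeR adjusted p = 0.0139), was not called without control 3 (log2 fold 0.93, edgeR adjusted p = 0.0769). Wt1, of the mesothelium, overlapped (log2 fold 0.20 ± 0.24, edgeR adjusted p = 0.64), and 1 of 12 mesothelial genes fell, against 2 without global 4.

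Extracellular matrix genes fell in part. Of 18 elastic fibre genes 4 fell and none rose. Mfap4, a microfibril protein, was at 769, 779 and 799 CPM in controls and 408, 491, 377 and 297 CPM in global lungs (log2 fold -0.99 ± 0.16, edgeR adjusted p = 9.31e-05), and Lox, the enzyme that crosslinks elastin and collagen, at 440.4, 486 and 467 CPM in controls and 281, 276, 203 and 175 CPM in global lungs (log2 fold -0.99 ± 0.14, edgeR adjusted p = 1.76e-05). Eln, elastin itself, did not pass, at 931, 644 and 876 CPM in controls and 589, 636, 353 and 259 CPM in global lungs (log2 fold -0.83 ± 0.33, edgeR adjusted p = 0.098). Of 29 collagen chains 10 fell and 1 rose, and 6 and 1 did so without control 3 or without global 4. Col6a3, of beaded filaments (log2 fold -0.98 ± 0.21, edgeR adjusted p = 0.00185), and Col4a4, of the mature basement membrane (log2 fold -1.03 ± 0.22, edgeR adjusted p = 0.00198), fell. Col26a1 rose from 46.1, 27.1 and 32.8 to 91.1, 70.04, 99.6 and 119 CPM (log2 fold 1.43 ± 0.22, edgeR adjusted p = 8.21e-05). Cartilage genes of the airway rings gave 4 falls and 2 rises among 14, and 3 falls and no rise without control 3. The related membrane proteins Cnmd and Tnmd, of cartilage and tendon, moved apart. Cnmd was at 12.98, 11.2 and 17.9 CPM in controls and 5.03, 4.58, 3.46 and 1.82 CPM in global lungs (log2 fold -1.91 ± 0.36, edgeR adjusted p = 0.000598), and Tnmd at 0.384, 0.575 and 0.755 CPM in controls and 4.74, 4.43, 4.31 and 4.17 CPM in global lungs (log2 fold 2.92 ± 0.39, edgeR adjusted p = 1.34e-05).

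Vessel genes were lower by smaller folds than the alveolar genes. Of 20 endothelial genes 16 fell and none rose (median -0.52), 13 without control 3 and 7 without global 4. Pecam1, the endothelial adhesion molecule, was at 255, 272 and 265 CPM in controls and 162, 183, 158 and 129 CPM in global lungs (log2 fold -0.74 ± 0.12, edgeR adjusted p = 8.84e-05). Kdr, the main VEGF receptor, was at 189, 224 and 203 CPM in controls and 162, 160.0, 153 and 142 CPM in global lungs, a smaller change without overlap (log2 fold -0.41 ± 0.09, edgeR adjusted p = 0.00363). Gpihbp1, which anchors lipoprotein lipase in capillaries, was at 8.53, 7.28 and 9.48 CPM in controls and 1.45, 3.84, 3.296 and 2.35 CPM in global lungs (log2 fold -1.60 ± 0.31, edgeR adjusted p = 0.000895). Of 19 capillary and apelin genes 7 fell. The ligand Apln (log2 fold -0.85 ± 0.16, edgeR adjusted p = 0.000503) and the receptor kinase Kit, of capillary endothelium and also of mast and germ cells (log2 fold -0.94 ± 0.13, edgeR adjusted p = 3.23e-05), were among them. Car4, an enzyme of specialized capillaries, was under 1 CPM except in global 4 at 2.52 CPM and did not pass (log2 fold 1.91 ± 0.87, edgeR adjusted p = 0.153). The summed level of the endothelial list was 1934 to 2195 CPM in controls and 1217 to 1517 CPM in global lungs.

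Pericyte genes, of the cells that wrap capillaries, fell in 7 of 14 cases (median -0.77), and in 5 without control 3 and 6 without global 4. Cox4i2, a hypoxia-linked respiratory subunit, was at 20.5, 16.02 and 17.03 CPM in controls and 6.58, 8.201, 6.42 and 2.69 CPM in global lungs (log2 fold -1.57 ± 0.22, edgeR adjusted p = 2.75e-05). Higd1b was at 2.07, 3.06 and 2.61 CPM in controls and 0.2901, 0.591, 0.169 and 0 CPM in global lungs (log2 fold -3.20 ± 0.47, edgeR adjusted p = 6.52e-05). The potassium channel genes Kcnj8 (log2 fold -1.18 ± 0.21, edgeR adjusted p = 0.000301) and Abcc9 (log2 fold -1.52 ± 0.30, edgeR adjusted p = 0.000908), which form 1 channel, fell together.

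Calls of blood cell genes were often tied to single libraries. Of 18 leukocyte genes 12 fell and none rose, but 1 fell without control 3, the library high in thymus genes, and 11 without global 4. Their summed level was 209 to 426 CPM in controls and 158 to 186 CPM in global lungs. Ptprc, the common leukocyte antigen, was at 3.23, 3.83 and 23.6 CPM in controls and 2.42, 2.36, 1.69 and 2.52 CPM in global lungs. Its fall (log2 fold -2.18 ± 0.42, edgeR adjusted p = 0.000766) was not called without control 3 (log2 fold -0.65, edgeR adjusted p = 0.154). Rag1, of T cell receptor assembly, was at 78.1 CPM in control 3 and under 0.2 CPM in every other library, and Prss16, a thymus protease, at 156 CPM against under 3 CPM. All 8 of the 12 thymus genes that fell lost their calls without control 3. Selplg, a ligand that leukocytes roll on, kept its call, at 2.92, 2.68 and 13.7 CPM in controls and 1.16, 1.03, 0.423 and 0.608 CPM in global lungs (log2 fold -2.98 ± 0.46, edgeR adjusted p = 8.19e-05, and log2 fold -1.79, edgeR adjusted p = 0.00446 without control 3). Tpsb2, a mast cell tryptase, fell (log2 fold -2.84 ± 0.60, edgeR adjusted p = 0.00229). Of 19 macrophage genes 8 fell, 3 without control 3 and 4 without global 4. C1qa, a complement protein of tissue macrophages, was at 16.4 to 23.5 CPM in controls and 11.3 to 11.7 CPM in global lungs (log2 fold -0.73 ± 0.15, edgeR adjusted p = 0.00113), while Mrc1, the mannose receptor, overlapped (log2 fold 0.16 ± 0.12, edgeR adjusted p = 0.435).

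Red cell genes gave 4 rises among 17 and none without control 3 or without global 4. The median log2 fold was 0.14, with 12 genes above 0 and 5 below, and the summed level was 2321 to 2920 CPM in controls and 1579 to 3127 CPM in global lungs, so the groups overlapped. Hbb-y, an embryonic globin that shares reads with its relatives, was at 176, 65.1 and 66.3 CPM in controls and 179.6, 81.3, 285 and 1295 CPM in global lungs. The groups overlapped, and its call (log2 fold 2.169 ± 0.62, edgeR adjusted p = 0.0177) ended without control 2 (log2 fold 1.93, edgeR adjusted p = 0.0853), control 3 (log2 fold 1.93, edgeR adjusted p = 0.104) or global 4 (log2 fold 0.83, edgeR adjusted p = 0.304). Slc4a1, the anion exchanger of the red cell membrane, was at 18.6, 23.7 and 13.2 CPM in controls and 52.4, 53.6, 52.1 and 76.3 CPM in global lungs, and its call (log2 fold 1.66 ± 0.50, edgeR adjusted p = 0.0254) ended without control 1 (log2 fold 1.67, edgeR adjusted p = 0.0731), control 3 (log2 fold 1.47, edgeR adjusted p = 0.131) or global 4 (log2 fold 1.51, edgeR adjusted p = 0.0714). Outside that list and named for their large rises, 4 genes of erythroid cells rose and kept their calls whichever library was left out. Epb42 was at 0.615, 1.53 and 1.099 CPM in controls and 5.803, 4.88, 5.49 and 8.08 CPM in global lungs (log2 fold 2.46 ± 0.57, edgeR adjusted p = 0.00398), Ermap at 1.69, 1.09 and 0.824 CPM in controls and 5.13, 5.84, 6.34 and 9.296 CPM in global lungs (log2 fold 2.47 ± 0.51, edgeR adjusted p = 0.00165), and Trim10 at 2.84, 4.47 and 3.85 CPM in controls and 24.6, 14.9, 21.04 and 20.5 CPM in global lungs (log2 fold 2.43 ± 0.47, edgeR adjusted p = 0.000803). Slfn14, a nuclease of red cell and platelet precursors, was at 0.461, 0.8299 and 0.549 CPM in controls and 4.74, 4.73, 4.06 and 5.47 CPM in global lungs (log2 fold 2.92 ± 0.69, edgeR adjusted p = 0.00483). The rule that named these 4 admits only genes without overlap whose calls hold without control 3 and without global 4. Their distance from the controls in every global library was therefore set by that rule and is no contrast to the list. The part of residual blood in these levels was not tested.

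Transcripts of other tissues were checked as well. None of 17 cardiomyocyte or 12 hepatocyte genes was called by edgeR or DESeq2, and none had an unadjusted p under 0.05. The cardiomyocyte sums were 264 to 839 CPM in controls and 384 to 1315 CPM in global lungs. Of 13 kidney genes 7 rose and 1 fell, 4 rose and none fell without control 3, and 1 rose and 1 fell without global 4. Kap, a kidney protein, was at 2.77, 0 and 0 CPM in controls and 2.901, 3.55, 6.42 and 264 CPM in global lungs, and its call (log2 fold 6.30 ± 1.62, edgeR adjusted p = 0.0101) ended without global 4 (log2 fold 2.27, edgeR adjusted p = 0.321), control 2 (log2 fold 5.68, edgeR adjusted p = 0.0503) or control 3 (log2 fold 5.71, edgeR adjusted p = 0.0615). Of 13 nerve and glial genes 1 rose, and none without control 3 or without global 4. Of 8 skeletal muscle genes 1 fell, and none without control 3. Of 4 germ cell genes 1 fell, which was Kit.

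Other large rises that held without control 3 and without global 4 were in single genes, which were picked for their size and not as a group. Epha8, a receptor for ephrins, was at 2.54, 1.21 and 1.79 CPM in controls and 24.7, 13.7, 13.02 and 11.99 CPM in global lungs. Global 1 was the highest, and the groups did not overlap (log2 fold 3.10 ± 0.40, edgeR adjusted p = 7.43e-06). Cnr1, the cannabinoid receptor of nerve endings, was at 1.31, 1.34 and 0.755 CPM in controls and 7.45, 8.87, 4.65 and 6.17 CPM in global lungs (log2 fold 2.57 ± 0.30, edgeR adjusted p = 2.53e-06), and Shisa3, an inhibitor of Wnt and FGF receptors, was at 9.06, 6.703 and 9.13 CPM in controls and 41.6, 37.2, 37.1 and 29.7 CPM in global lungs (log2 fold 2.13 ± 0.34, edgeR adjusted p = 0.000113). Lower in level were Lrfn5 (log2 fold 2.15 ± 0.52, edgeR adjusted p = 0.00582), Cntn2 (log2 fold 1.82 ± 0.39, edgeR adjusted p = 0.00255) and Nptx2 (log2 fold 1.72 ± 0.36, edgeR adjusted p = 0.00165), which act in synapses and axon contact, the brain adenylate kinase Ak5 (log2 fold 1.95 ± 0.24, edgeR adjusted p = 4.44e-06), the ion channel Mcoln3 (log2 fold 2.07 ± 0.36, edgeR adjusted p = 0.000269) and the arginine deiminase Padi2 (log2 fold 1.80 ± 0.34, edgeR adjusted p = 0.000652). Of 39 ephrin, semaphorin and plexin genes 3 rose and 5 fell, 1 and 3 without control 3, and 2 and 3 without global 4.

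Large falls outside the lists that held without control 3 and without global 4 included Glp1r, the receptor for an incretin, at 3.303, 2.171 and 1.44 CPM in controls and 0, 0.296, 0.169 and 0.0869 CPM in global lungs (log2 fold -3.88 ± 0.73, edgeR adjusted p = 0.000606), and Il18r1, an interleukin receptor, at 3.15, 2.75 and 5.56 CPM in controls and 0.2901, 0.739, 0.338 and 0.0869 CPM in global lungs (log2 fold -3.30 ± 0.74, edgeR adjusted p = 0.00335). Egfem1 was at 7.298, 9.58 and 10.03 CPM in controls and 1.35, 1.699, 1.44 and 1.04 CPM in global lungs (log2 fold -2.68 ± 0.32, edgeR adjusted p = 2.53e-06). The potassium channel Kcnc1 (log2 fold -2.52 ± 0.42, edgeR adjusted p = 0.000207) and Xdh, of purine breakdown (log2 fold -2.50 ± 0.56, edgeR adjusted p = 0.00334), also fell without overlap. Sycp1, of the meiotic synapse, had 94 counts over the controls and 0 over the 4 global libraries, at 1.997, 1.85 and 2.68 CPM in the controls. Against a floor of 3 counts over the group it was at least 34.2-fold lower, but the call (edgeR adjusted p = 0.0327) ended when any 1 of the 7 libraries was left out, with edgeR adjusted p from 0.0511 to 0.0829.

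Some of the most abundant genes changed by smaller folds. Sparc, a matrix glycoprotein, was at 1725, 1581 and 1558 CPM in controls and 1018, 1060.5, 984 and 915 CPM in global lungs (log2 fold -0.71 ± 0.14, edgeR adjusted p = 0.000887), and Vim, the intermediate filament of mesenchyme, at 1200.0, 1194 and 1203 CPM in controls and 772, 841, 817 and 704 CPM in global lungs (log2 fold -0.61 ± 0.12, edgeR adjusted p = 0.000775). Tmsb4x, which binds actin monomers, was at 930.0, 943 and 1132 CPM in controls and 524, 635, 562 and 496 CPM in global lungs (log2 fold -0.85 ± 0.14, edgeR adjusted p = 0.000135). The ribosomal stalk gene Rplp0 was at 1244, 1152 and 1262 CPM in controls and 851, 889.9, 923 and 960.2 CPM in global lungs (log2 fold -0.43 ± 0.10, edgeR adjusted p = 0.00438). Cald1, an actin-binding protein, rose, at 309, 398 and 349.9 CPM in controls and 569.7, 516, 555 and 564 CPM in global lungs (log2 fold 0.65 ± 0.11, edgeR adjusted p = 0.000323).

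The E14.5 difference ran against the normal course of the lung. Between E12.5 and E16.5, in control libraries that take no part in the E14.5 comparison, 5083 genes rose and 4737 fell (27.7% and 25.9% of those tested). Of the genes lower in E14.5 global lungs 78.2% were risers of that course, and of the genes higher 65.1% were among those that fell. Of 3026 genes that rose over 2-fold in controls, 29.6% were lower and 0.50% higher in E14.5 global lungs. Of 1503 that fell over 2-fold, 18.496% were higher and 0.33% lower. Across the 18319 genes the log2 fold of the course and that at E14.5 had a Pearson r of -0.46 and a Spearman rho of -0.48, given as a description, since genes are not independent replicates and all values come from 1 fit.

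Single genes show how far the levels lay from their stage. Sftpc had means of 35.9, 1255 and 6681 CPM in E12.5, E14.5 and E16.5 controls and of 149 ± 118 (SD, n = 4) CPM in E14.5 global lungs. Muc1 had 8.51, 100.3 and 375 CPM in the controls and 19.4 ± 6.63 (SD, n = 4) CPM in E14.5 global lungs. Hmga2 had 303, 67.6 and 33.7 CPM over the 3 control stages and was at 401 ± 85.4 (SD, n = 4) CPM in E14.5 global lungs. Stra6 had 19.2, 1.999 and 0.7298 CPM in the controls and was at 16.98 ± 4.68 (SD, n = 4) CPM. Igf2bp2 had 260.4, 138 and 89.5 CPM in the controls and was at 333 ± 32.6 (SD, n = 4) CPM. For Sftpc and Muc1 the E14.5 global mean lay between the E12.5 and E14.5 controls, and for Hmga2 it lay above the controls of all 3 days.

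**Figure D5:**
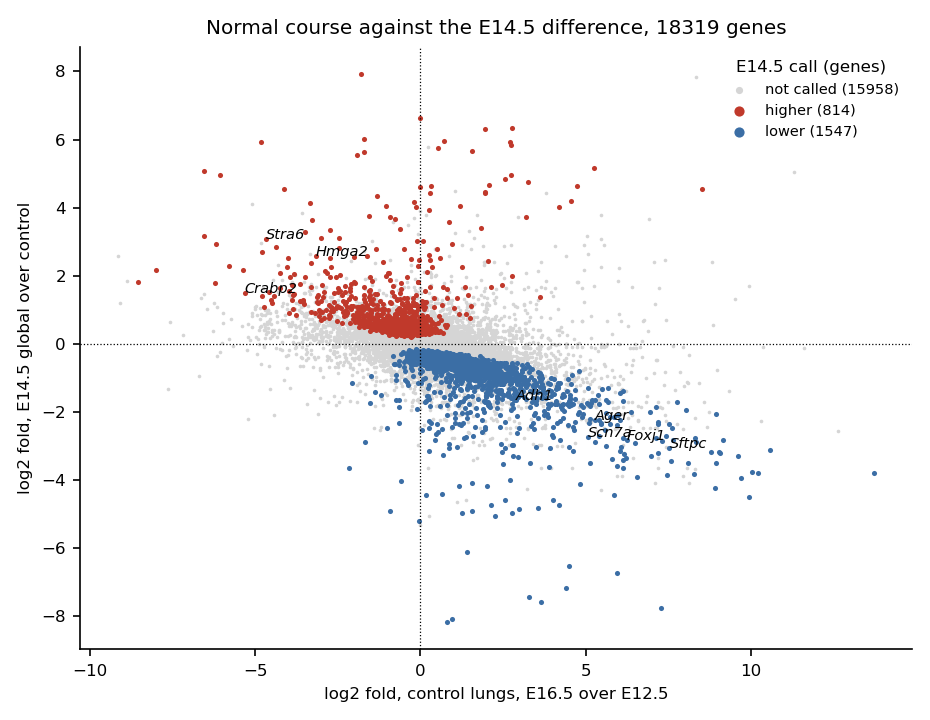
Log2 fold of E16.5 over E12.5 control lungs (x axis) against log2 fold of E14.5 global over control lungs (y axis), 1 point for each of 18319 genes, coloured by the E14.5 call. Most of the 1547 lower genes lie at the right, among genes that rose in controls, and most of the 814 higher genes at the left.

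The comparison was also set beside the neighbouring days. At E12.5, 41 genes were called (0.224%, with 0.12% higher and 0.104% lower), of which 20 of 22 higher and 12 of 19 lower genes were called in the same direction at E14.5. At E16.5, 6785 were called (37%, with 17% higher and 20.1% lower), and 522 of the 814 higher and 1120 of the 1547 lower genes at E14.5 were among them in the same direction, that is 64.1% and 72.4% of the E14.5 calls and 16.8% and 30.4% of the E16.5 calls. In each direction 6 genes were called the opposite way at E16.5. The global libraries of the 3 days are separate, as are the controls.

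Few effects differed between E12.5 and E14.5 beyond the spread. By the test of the difference itself 8 genes did (0.0437%). Without control 3, control 2, global 1 or global 2 the counts were 1, 3, 5 and 13. Shisa3 was at a log2 fold of -1.08 ± 0.34 at E12.5 and 2.13 ± 0.34 at E14.5 (change 3.21 ± 0.48, edgeR adjusted p = 0.00401), and its change stayed called whichever E14.5 library was left out. Cnr1 went from 0.14 ± 0.28 to 2.57 ± 0.30 (change 2.43 ± 0.41, edgeR adjusted p = 0.0132), Hmga2 from 1.20 ± 0.17 to 2.57 ± 0.18 (change 1.37 ± 0.24, edgeR adjusted p = 0.0132) and Kit from 0.19 ± 0.15 to -0.94 ± 0.13 (change -1.13 ± 0.20, edgeR adjusted p = 0.0145). Without control 3 these adjusted p were 0.0622, 0.0809 and 0.0622. The others were Stra6, Epha8, Tnmd and the zinc-finger gene Zfp961, the last named because it completes the count.

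Between E14.5 and E16.5 the effect changed for 1443 genes (7.88%). The growth lists gained calls. Mitosis genes had no call at E14.5 and 10 of 24 higher at E16.5, replication genes none and 20 of 22, and aminoacyl-tRNA synthetase genes none and 16 of 20. The change itself was called for 0, 7 and 7 of them, all toward higher, against 4.01% of all genes. Alveolar genes went further down, with a called change for 8 of 22 type 2 and 10 of 20 type 1 genes toward lower and 1 type 1 gene toward higher, against 3.87% of all genes. Ager went from -2.26 ± 0.31 to -4.45 ± 0.37 (change -2.19 ± 0.46, edgeR adjusted p = 0.00401), Hopx from -2.08 ± 0.36 to -4.42 ± 0.38 (change -2.34 ± 0.51, edgeR adjusted p = 0.00543) and Scnn1a from -0.67 ± 0.34 to -3.96 ± 0.35 (change -3.29 ± 0.49, edgeR adjusted p = 0.000348). Endothelial genes showed no called change in any of 20. Adh1 and Psat1, low at E14.5, came closer to controls. Adh1 went from -1.65 ± 0.18 to -0.58 ± 0.19 (change 1.07 ± 0.26, edgeR adjusted p = 0.0118) and Psat1 from -0.79 ± 0.11 to 0.24 ± 0.12 (change 1.03 ± 0.17, edgeR adjusted p = 0.000679). The E14.5 libraries enter both changes, so these are not independent of the E14.5 values above.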

How the data were processed

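Whole embryonic lungs were profiled by poly(A) RNA-seq. The deposited table holds whole-number read counts per gene for 21789 genes, made by the authors. Per the submitters' processing notes the tools named are DESeq2 1.10.1, HTSeq 0.6.1p1, STAR 2.4.2a, cutadapt and bcl2fastq 2.17.1.14, and the build is GRCm38. The annotation release and the use of strand in counting are not given in the sources used here, so overlapping, antisense and near-identical genes can share reads. Identifiers were matched to GENCODE M21 (21754 of 21789).

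Counts were tested with edgeR 4.0.16 (R 4.3.3, limma 3.58.1) by its quasi-likelihood test with TMM scaling and the package's filter on low counts, in 1 fit over all 34 libraries and 10 groups, without a replicate block. P-values were adjusted by Benjamini-Hochberg over all 18319 genes tested, and genes are called at 0.05. Standard errors are the log2 fold divided by the root of F. The change of an effect between days was tested as an interaction in the same fit. Intervals of counting error do not cover amplification, and the floor of 3 counts covers counting error only. The procedure was tested on simulated counts for this comparison over 17700 genes, where 77 of 100 genes changed by a log2 fold of 1 and 96 of 100 changed by 2 were called, with 10 false calls. Apart from the changed genes, each simulated gene had the same mean in every group, and no library held transcripts of another tissue. Genes of low level were left unchanged. These rates therefore need not hold for the real libraries.

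The members, gene lists and motifs were chosen with earlier results of these data known. Named genes follow a rule: the targeted genes, the 25 largest rises and 25 largest falls of at least 2 CPM that do not overlap and hold without control 3 and without global 4, the first 3 genes and up to 5 called genes of each list, the 10 largest falls lost without control 3 and rises lost without global 4, and the 10 largest differences in CPM each way. Alternatives were DESeq2 1.42.0, other scalings and filters, the E14.5 libraries alone, a replicate block and leaving out libraries. The Xist class and the minimum 3' UTR length of 2000 bases were chosen after seeing the data.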

Additional observations from a re-analysis of the deposited data

Results flagged for a closer look

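Each of 170 values, for the named genes and for summed lists, was searched for a library far from the others of the global group (by Dixon's ratio of gap to range), and 12 were found, where chance gives about 1 in 20. Global 4 stood apart for Hmga2 at 529 CPM, Scnn1a at 6.26 CPM, Car4 at 2.52 CPM, Mcoln3 at 6.17 CPM, S100g at 17.4 CPM, Hbb-y at 1295 CPM, Slc4a1 at 76.3 CPM and Kap at 264 CPM, and for the kidney genes at a summed 680 CPM. Global 1 stood apart for Epha8 at 24.7 CPM and Krt5 at 0.774 CPM, and global 3 for Nptx2 at 4.39 CPM.

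The effect of global Lin28A differed between E12.5 and E14.5 by the interaction test for 8 genes. The log2 change of the effect was 1.37 for Hmga2, 2.48 for Stra6, 2.86 for Epha8, 2.72 for Tnmd, 3.21 for Shisa3, 2.43 for Cnr1 and -1.13 for Kit. It stayed called without each of the 7 E14.5 libraries for Shisa3, and lost the call in at least 1 leave-out for the other 6. Without control 3 the edgeR adjusted p was 0.171 for Stra6, 0.144 for Epha8 and 0.0622 for Tnmd.

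Between E14.5 and E16.5 the effect differed for 1443 genes. The log2 change was 0.61 for Ccnd2, 1.41 for Mycn, 2.98 for Crabp2, 1.07 for Adh1, 3.25 for Tnmd and 1.03 for Psat1. It was -2.12 for Sftpb, -2.19 for Ager, -2.34 for Hopx, -1.39 for Cebpa, -1.29 for Cpm and -3.29 for Scnn1a. For Sftpb, a surfactant protein, the call held in 2 of 7 leave-outs, for Cebpa in 5 and for Tnmd in 6, and for the other 9 in all 7. Without control 3 the edgeR adjusted p was 0.0603, 0.0512 and 0.0577 for these 3.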

How the results depend on the processing

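The number of called genes was 2361, and it was 1319 with the replicate block, 738 without both control 3 and global 4, and 1274 to 2283 when 1 library was left out. Higher genes went from 814 to 443, 199 and 369 to 807 under these settings, and lower genes from 1547 to 876, 539 and 905 to 1476. Distinct list members called went from 268 to 171, 112 and 165 to 270. The 8 changes of effect from E12.5 to E14.5 became 49 with DESeq2, 4 with the block, 1 without both libraries and 1 to 13 in the leave-outs. The 1443 from E14.5 to E16.5 became 933 without both libraries, and the 9820 genes of the control course became 6071 with the block. The gap in median log2 fold between 3 or more and 0 seed matches was 0.36 (SD 0.10 over 4 global libraries) and became 0.81 with matches followed by A, where the top class holds 7 genes. Over the leave-outs the log2 fold ran from -5.66 to 1.15 for Krt5 and from -8.69 to 0.24 for Rag1, the highest being without control 3, and without both libraries it was 1.35 and 0.61. The cause was not tested.

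The replicate numbers of the labels did not pair the libraries. Deviations from the group means over 10000 genes correlated at -0.11, -0.11 and -0.21 between same-numbered controls and global libraries, so the block is given here only.

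Over 158 named genes and all settings, 2403 of 2517 values kept their side of the threshold, 102 lost and 8 gained a call, and 4 turned sign. For values called neither in the main fit nor in the alternative, the direction was not compared. Low genes such as Sycp1 and Glp1r rest on few counts, and there the depth limits the precision.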
